A study of Mus musculus with 6 samples.

Results

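*Msi2* carried 36 of the 18,333 regions that the authors listed as differentially methylated (DMRs) between lung endothelial cells (EC) of infant and young adult mice. The 36 DMRs were chosen by position alone, as every listed region whose midpoint fell in the *Msi2* gene body, a span of 378.896 kb on the minus strand of chromosome 11 (GRCm38). The gene itself was selected on the number of its DMRs and on their loss of methylation, so both are given as a description with no test. In all 36 DMRs (100%) the young adult mean was below the infant mean, and no DMR gained methylation. Over the whole list 45.9% of the DMRs lost methylation, and over the 12,175 intragenic DMRs 57.5% did. The median methylation of the *Msi2* DMRs was 65.8% at the infant age and 27.0% at the young adult age.

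The study asked how the methylome of EC changes as vessels become quiescent. EC were sorted from lungs at the infant age (8 to 10 days, 3 samples) and at the young adult age (8 to 12 weeks, 3 samples), all from C57BL/6N mice that carried no transgene or treatment named in the labels. The methods describe the mice as female and the sorted cells as CD31+ CD34+ cells without the markers PTPRC, LYVE1, LY76 and PDPN. Methylation was read by T-WGBS, a form of bisulfite sequencing of the whole genome for small inputs. A transposase fragments the DNA, bisulfite changes cytosines that carry no methyl group, and the methylation of a CpG is the share of its reads that still show a C. The authors called a DMR where at least 3 neighbouring CpGs each passed a p threshold of 0.05 and the means of the ages were 10% or more apart. The values below are both group means of each DMR as the authors averaged them. The table holds no value per sample, so the spread between replicates is not known for any difference, and the read depth behind a DMR is unknown. In sorted bulk DNA, fewer cells with a methylated gene cannot be told apart from fewer methylated CpGs per cell. EC marker genes could not be checked, because expression was not analysed here. The paper reports its own check of the sorted cells, by marker gene expression with quantitative PCR.

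*Msi2* encodes Musashi-2, an RNA-binding protein with a pair of RNA recognition motifs that binds short UAG-containing stretches of mRNAs and regulates their stability and translation. It is best known for maintaining haematopoietic stem and progenitor cells and for its role in leukaemia, and its paralogue *Msi1* was first studied in neural progenitors. Methylation of CpGs within introns is commonly low at enhancers that are in use and high across the bodies of transcribed genes, whereas CpG-rich promoters are usually unmethylated.

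The DMRs were numbered from 1 to 36 in the direction of transcription, starting from the transcription start site (TSS). The sequences of 6 of them are given to show how the CpGs of these regions lie, as the plus strand of GRCm38 from RefSeq with every CpG in capitals. DMR 17 (chr11:88654966-88655263) had the largest loss and the most CpGs, DMR 1 (chr11:88714685-88714943) lay nearest to the TSS, and DMR 32 (chr11:88594662-88594763) had the smallest loss. DMR 10 (chr11:88675917-88675990), DMR 11 (chr11:88675757-88675777) and DMR 12 (chr11:88675623-88675669) formed the tightest group of 3. DMR 32 and this group were picked for display after their values were seen.
DMR 17: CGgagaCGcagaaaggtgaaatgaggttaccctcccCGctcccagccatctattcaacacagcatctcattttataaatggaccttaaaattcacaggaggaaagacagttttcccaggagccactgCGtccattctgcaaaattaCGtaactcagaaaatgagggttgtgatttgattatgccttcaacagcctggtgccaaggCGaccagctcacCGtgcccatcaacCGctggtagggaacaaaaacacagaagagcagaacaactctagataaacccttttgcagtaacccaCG
DMR 1: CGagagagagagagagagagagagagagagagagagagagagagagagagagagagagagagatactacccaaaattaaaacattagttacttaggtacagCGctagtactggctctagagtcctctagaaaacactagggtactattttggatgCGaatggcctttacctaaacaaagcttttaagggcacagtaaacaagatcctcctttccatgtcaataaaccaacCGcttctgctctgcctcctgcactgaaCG
DMR 32: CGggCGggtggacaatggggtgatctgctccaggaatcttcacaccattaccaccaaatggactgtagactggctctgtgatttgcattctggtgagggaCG
DMR 10: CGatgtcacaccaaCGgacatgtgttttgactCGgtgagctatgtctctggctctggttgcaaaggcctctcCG
DMR 11: CGgaacctcCGagccaaagCG
DMR 12: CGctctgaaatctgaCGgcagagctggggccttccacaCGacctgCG
The spacing of the CpGs differed widely between these regions. DMR 11 packed 3 CpGs into 21 bp, while the 5 CpGs of DMR 1 were spread over 259 bp that began with a run of GA repeats. None of the 6 regions lay in an exon.

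The 36 DMRs were short. Their width ranged from 21 to 582 bp with a median of 118.5 bp, and each held 3 to 9 CpGs with a median of 4. Together they covered 5694 bases and 148 CpGs, which is 2.92% of the 5062 CpGs of the gene body. Of the DMRs, 15 had 3 CpGs, 9 had 4 and 12 had 5 or more. The mean number of CpGs was 4.11 in *Msi2* and 4.22 over all intragenic loss DMRs, and the *Msi2* regions were thus of similar size.

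The infant means ranged from 21.0% in DMR 32 to 89.6% in DMR 2, with quartiles of 49.0% and 75.5%. The young adult means ranged from 3.74% in DMR 35 to 55.0% in DMR 2, with quartiles of 12.4% and 37.9%. The ranges over DMRs overlapped between the ages, since 19 DMRs had a young adult mean above the lowest infant mean. Infant methylation was above 60% in 23 DMRs, 40% to 60% in 6 and below 40% in 7. Young adult methylation was below 20% in 15 DMRs, of which 7 were below 10%, and stayed at 40% or more in 7. In the other 14 DMRs it was 20% to 40%. Most of the DMRs thus went from mostly methylated to mostly unmethylated, and partial methylation remained common among them in the adult.

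The difference, taken as young adult minus infant mean, ranged from -55.8 to -16.3 percentage points, with a median of -34.7 and an SD over the 36 DMRs of 8.47 points. The difference was at least 30 points in 26 DMRs, 20 to 30 points in 9 and under 20 points in 1. Set against the infant level, the DMRs lost 35.5% to 89.5% of their methylation with a median of 60.2%, and 24 lost more than 50% of it. The median over all intragenic loss DMRs was 57.2%.

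**Figure D1:**
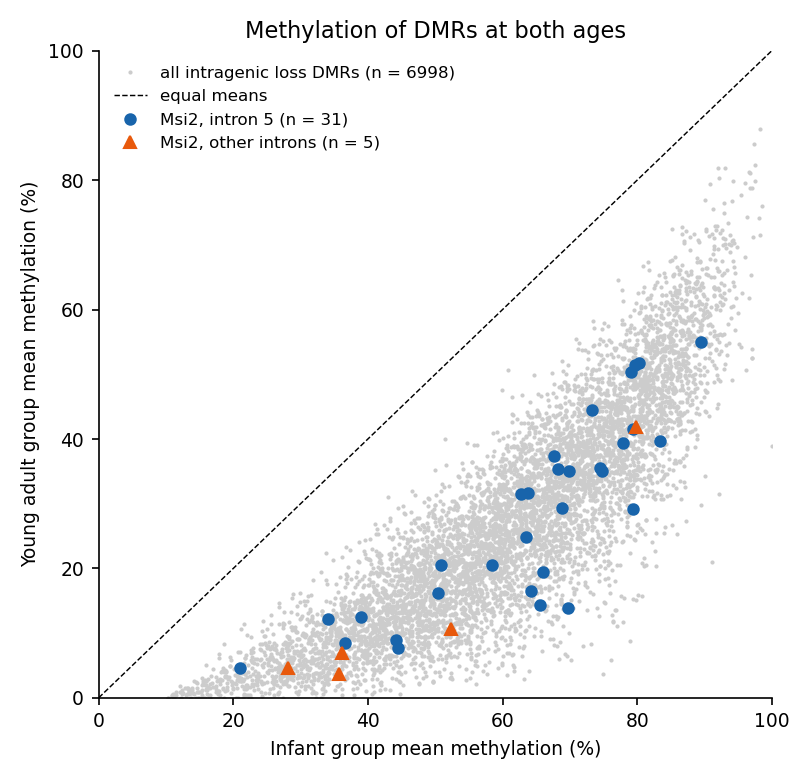
Each point is a DMR, with its infant group mean (x axis, %) and its young adult group mean (y axis, %), for the 31 DMRs in intron 5 of *Msi2* (circles), the 5 in other introns (triangles) and all 6998 intragenic loss DMRs (grey). All *Msi2* DMRs lie below the dashed line of equal means, inside the cloud of the other intragenic losses.

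DMRs with a higher infant level also had a higher young adult level. Over the 36 DMRs, Pearson's r between both means was 0.88 and Spearman's rho 0.90, and r was 0.87 without the 2 DMRs farthest from the median infant level. Over all intragenic loss DMRs r was also 0.87. The points share the same 6 libraries, neighbouring regions are not independent, and a minimum difference is built into the list, so the correlation describes these regions only. The infant level was related less closely to the difference, with r of -0.50 and rho of -0.40, and r of -0.35 without the 2 farthest DMRs. The difference is computed from the infant mean and a loss cannot exceed it, so a negative relation is partly built in.

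The largest loss was that of DMR 17, with 9 CpGs in 298 bp at 63.2 kb from the TSS. Its mean fell from 69.8% to 13.9% with age, a difference of -55.8 points. DMR 28 (chr11:88607549-88607631) followed, with an infant mean of 65.5%, a young adult mean of 14.3% and a difference of -51.2 points. These regions started near the median infant level of the gene and ended well below its median young adult level. DMR 10 went from 79.3% to 29.2%, a difference of -50.1 points. DMR 18 (chr11:88654649-88654824) went from 64.2% to 16.5%, a difference of -47.7 points, and lay 141 bp from DMR 17. DMR 23 (chr11:88621726-88621849) went from 66.0% to 19.4%, a difference of -46.7 points. All 5 lay in intron 5.

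At the other end, DMR 32 had both the lowest infant mean and the smallest loss, from 21.0% to 4.63%, a difference of -16.3 points. A small absolute difference did not mean a small share, since DMR 32 lost 77.9% of its infant methylation. DMR 2 (chr11:88710299-88710391) had the highest means at both ages, 89.6% and 55.0%, and lost 38.6% of its infant level. The lowest young adult mean was that of DMR 35 (chr11:88392787-88392951), which went from 35.6% to 3.74% and lost 89.5% of its infant level.

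The intron in which a DMR lay was not part of how the DMRs were chosen. The longest curated RefSeq transcript of the gene (NM_001373923) has 13 exons. Intron 5 (chr11:88590148-88712437) held 31 of the 36 DMRs, a share of 86.1% (95% Wilson interval 71.3 to 93.9, counting error only). The interval takes the DMRs as independent, which neighbouring regions read in the same libraries are not. It therefore says nothing about the spread between samples. The same intron has 32.3% of the length and 33.2% of the CpGs of the gene. Intron 6 held 2 DMRs, introns 4, 9 and 11 held 1 each, and introns 1 to 3, 7, 8, 10 and 12 held none. Introns 1, 2 and 3 are short, with 33, 6 and 21 CpGs. No DMR overlapped an exon of any curated transcript. The exons of the longest one take only 1.71% of the length and 2.73% of the CpGs of the gene. By midpoint, 94 of 156 genes with at least 10 loss DMRs had no exonic loss DMR either, so this was common.

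The contrast between the long introns was large. Intron 5 had 1.84 DMRs per 100 CpGs and 7.37% of its 1682 CpGs lay in a DMR. Intron 6 has 110 kb and 1396 CpGs, and had 0.143 DMRs per 100 CpGs. Intron 7 has 66.0 kb and 870 CpGs, and had no DMR. Which CpGs of each intron reached the coverage that the authors required is not in the table, so CpGs that were not testable count in these rates. Within intron 5 the DMRs were spread over its whole length, with 11, 8 and 12 in consecutive parts of equal length that have 571, 544 and 567 CpGs.

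**Figure D2:**
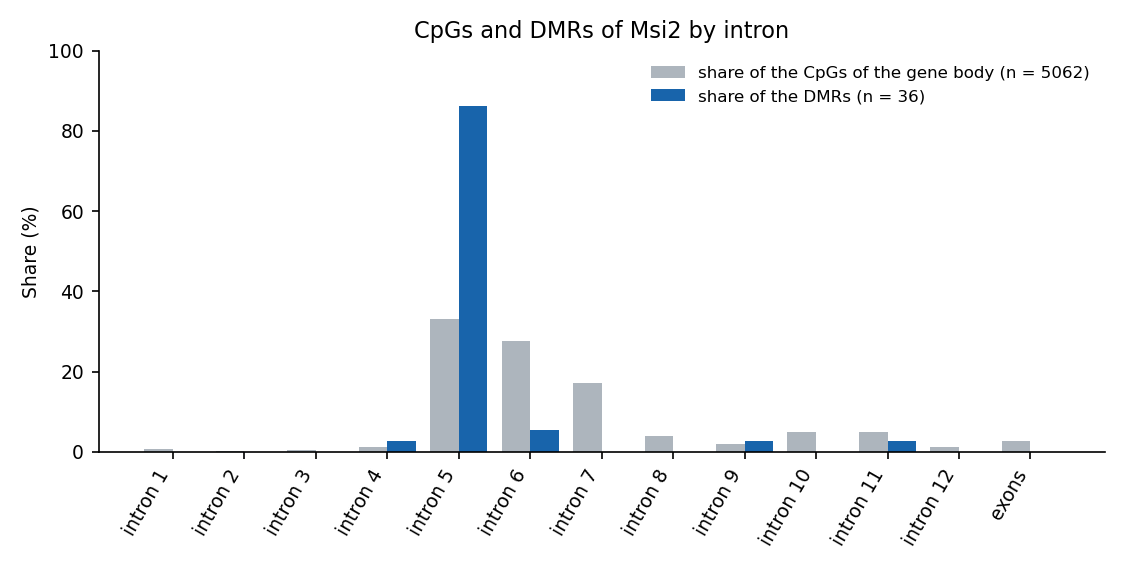
Bars give the share (%) of the 5062 CpGs of the *Msi2* gene body (grey) and of its 36 DMRs (blue) in each intron of the longest curated transcript and in its exons. Intron 5 holds 33.2% of the CpGs and 86.1% of the DMRs, and intron 7 holds 870 CpGs and no DMR.

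No DMR lay within 1 kb of the TSS, where the sequence has 162 CpGs at 8.10 per 100 bp against 1.34 per 100 bp over the gene body. DMR 1, in intron 4 at 3.46 kb, was the nearest. Within 10 kb of the TSS lay 3 DMRs. Counted in steps of 50 kb from the TSS, 13, 12, 7 and 2 DMRs lay in the first 200 kb, none from 200 to 300 kb and 2 in the remainder. *Msi2* also has a short curated transcript (NM_001201341) that ends within intron 5 of the long form, at chr11:88685954. Its span held 4 of the 36 DMRs, and the others lay beyond its end.

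When DMRs at most 10 kb apart were joined, the gene fell into 7 runs, of which 4 were single DMRs. The first run held DMRs 1 to 3, at 3.46 to 9.29 kb from the TSS. DMR 1 had an infant mean of 36.2% and a young adult mean of 6.92%. DMR 2 went from 89.6% to 55.0%, and DMR 3 from 69.9% to 35.1%. The 3 regions differed widely in level, while their differences were close, at -29.2, -34.6 and -34.8 points.

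The second run held 16 DMRs over 41.1 kb, at 26.8 to 67.8 kb from the TSS and within intron 5. Its infant median was 66.6% and its young adult median 29.2%, with a median difference of -37.3 points. It opened with DMR 4, which went from 34.0% to 12.2%. DMR 5 went from 79.1% to 50.3%, and DMR 6, 283 bp further, from 63.7% to 31.7%. The first regions of this run thus covered much of the range of levels seen in the gene. DMR 7 went from 63.6% to 24.8%. DMR 8, of which 74.4% is repeat sequence, went from 79.3% to 41.5%, and DMR 9 from 58.4% to 20.5%.

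DMRs 10 to 12, whose sequences are given above, lay at 42.3 to 42.6 kb from the TSS. DMR 10 went from 79.3% to 29.2%, DMR 11 from 74.8% to 35.0% and DMR 12 from 68.9% to 29.3%. The gaps between them were 139 and 87 bp and held 1 CpG each, which was in no listed region. The 3 regions had similar levels at each age and were listed apart although they lay this close. After them, DMR 13 went from 44.2% to 8.94%, and DMR 14 from 62.7% to 31.5%. DMR 15 went from 73.3% to 44.4% over 429 bp, and DMR 16 from 80.3% to 51.8%. DMRs 15 and 16 kept more methylation in the adult than most others, and the pair next to them held the largest loss.

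DMRs 17 and 18, 141 bp apart, went from 69.8% to 13.9% and from 64.2% to 16.5%. DMR 19 closed the run, from 44.5% to 7.70%. These 3 ended among the lower young adult levels of the gene, from different infant levels.

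The third run held 13 DMRs over 37.9 kb, at 85.7 to 123.6 kb from the TSS and also in intron 5. Its infant median was 66.0% and its young adult median 20.6%, with a median difference of -33.0 points. DMR 20 went from 50.8% to 20.6%, DMR 21 from 74.5% to 35.5% and DMR 22 from 79.7% to 51.4%. DMR 23, 1 of the 5 with the largest loss, came next. The run then held the widest regions of the gene.

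DMR 24 (chr11:88619206-88619787), the widest with 582 bp and 7 CpGs, went from 67.6% to 37.4%. DMR 25, 294 bp further and 540 bp wide, went from 36.6% to 8.55%. DMR 26, another 351 bp further, went from 68.3% to 35.3%. The middle region was lower by 31.0 and 31.7 points than its first and second neighbour in infant EC and by 28.9 and 26.8 points in young adult EC, and the differences of the 3 were alike at -30.2, -28.0 and -33.0 points. DMR 24 covered the annotated start of 0610039H22Rik, a RefSeq gene on the plus strand that lies within intron 5 (chr11:88619251-88623426) and also held DMR 23. That gene was looked at after the values were seen.

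DMR 27 went from 77.9% to 39.3%. DMR 28, with the second largest loss of the gene, went from 65.5% to 14.3%. DMRs 29 and 30 lay 84 bp apart, and went from 39.0% to 12.4% and from 50.4% to 16.2%. DMR 31 had a higher level, from 83.4% to 39.7%, and a difference of -43.7 points. DMR 32 ended the run with the lowest infant level. Regions of high and low level thus lay side by side up to the end of the run.

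The last 4 DMRs lay singly and far apart. DMR 33 (chr11:88535584-88535662) in intron 6 followed 58,999 bp after the third run and went from 79.8% to 41.9%. DMR 34 (chr11:88523749-88523946), in the same intron, went from 52.4% to 10.7%. The next gap, of 130,797 bp, was the longest of the gene. DMR 35 in intron 9 went from 35.6% to 3.74%. DMR 36 (chr11:88356034-88356144) in intron 11 went from 28.1% to 4.58%, a difference of -23.6 points. The regions in the 3' part of the gene, DMRs 35 and 36, were thus low already in infant EC and below 5% in young adult EC. DMR 36 lay 147 bp from the start of Gm15893, an antisense transcript of GENCODE M21, and 3261 bp from Mir378b, both looked at after the values were seen. The authors' table names the *Mir378b* promoter as the nearest for DMRs 34 to 36 and the *Msi2* promoter for the other 33.

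**Figure D3:**
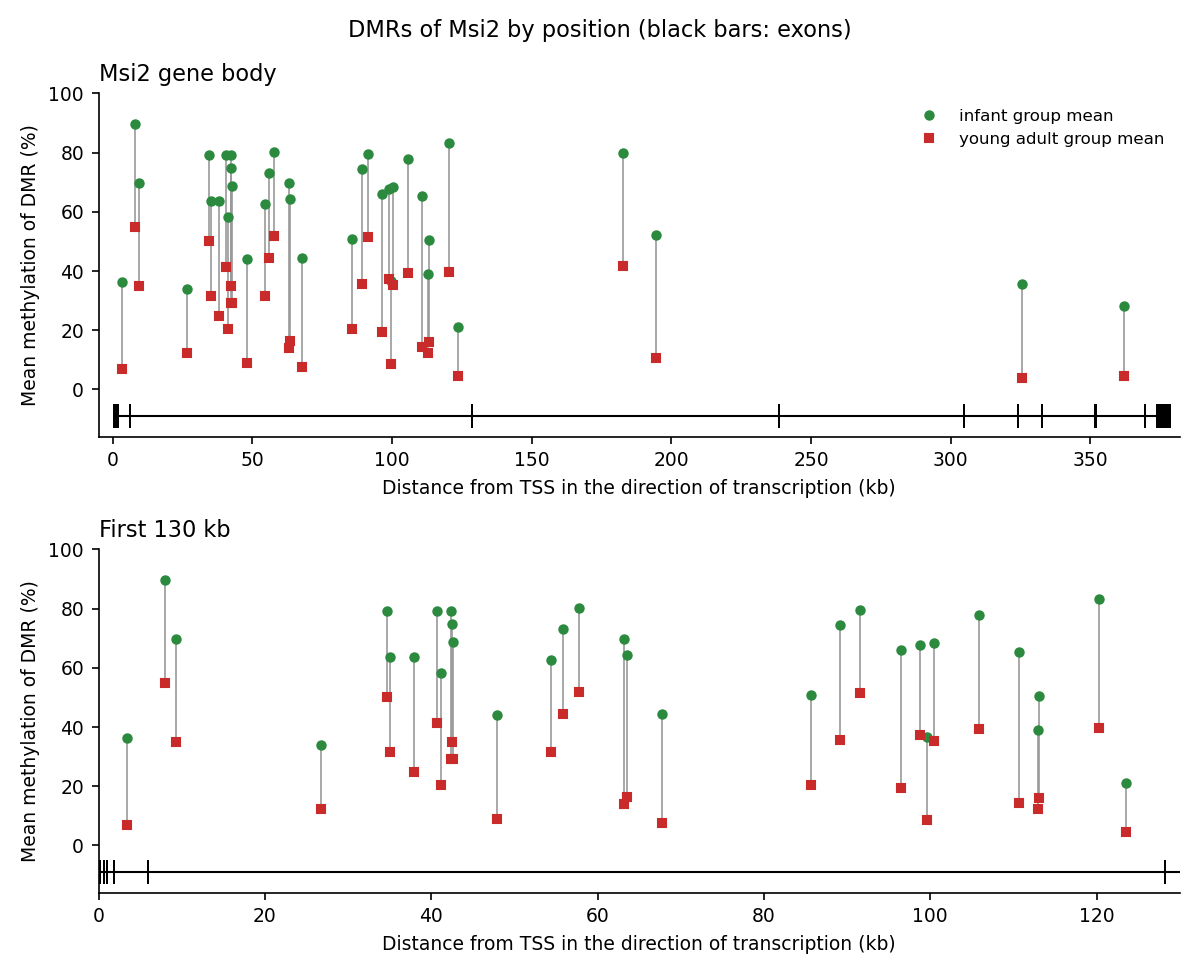
Circles give the infant and squares the young adult group mean (y axis, %) of each *Msi2* DMR by its distance from the TSS (x axis, kb), over the whole gene (top) and its first part (bottom), with exons of the longest curated transcript as black bars. The DMRs crowd between 26.8 and 67.8 kb and between 85.7 and 123.6 kb, and in each the square lies below its circle.

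Along the gene the level and the loss showed little order. Over the 36 DMRs, the distance from the TSS and the infant level had r of -0.39 and rho of -0.21, and r was -0.10 without the 2 DMRs farthest from the median distance. For the difference, r with distance was 0.14 and rho 0.016. The relation of distance to the infant level rested on these farthest DMRs. Close neighbours were not always alike, as DMRs 24 to 26 show. In the 8 pairs at most 1 kb apart the infant means differed by a median of 13.4 points and the young adult means by 12.2, against 16.2 and 16.0 points over all 630 pairs of *Msi2* DMRs, these 8 included. The pairs share members and libraries, so these are descriptions only.

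The nearest listed regions beyond the gene changed the other way. The nearest DMR outside the TSS end (chr11:88748848-88748986), 30.6 kb away, gained methylation from 81.0% to 93.8%. The nearest outside the far end (chr11:88261141-88261212), 78.2 kb away, gained from 51.0% to 80.3%. Just inside the ends, DMR 1 had a difference of -29.2 points and DMR 36 of -23.6 points.

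The sequence of the DMRs was compared with that of other listed regions. The median GC content of the *Msi2* DMRs was 52.6% and that of all intragenic loss DMRs 50.4%. A window of 200 bp with the GC content (at least 50%) and CpG density (over 0.6 of that which base content predicts) of a CpG island overlapped 7 *Msi2* DMRs (19.4%) and 11.8% of the intragenic loss DMRs. More than 50% of the bases were soft-masked as repeat in 1 *Msi2* DMR (2.78%) and in 6.40% of the intragenic loss DMRs. The repeat share per *Msi2* DMR had a mean of 8.98%, with each DMR counted equally whatever its width. Of the bases of the gene body 16.6% are repeat, which is a share of bases and so not the same measure. The number of CpGs per 100 bp had a weak correlation with the difference, with r of -0.12 and rho of -0.18 over the 36 DMRs.

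Binding motifs of factor families with known roles in EC were counted on both strands in windows of 200 bp centred on each DMR. The ETS core AGGAAG was present in 16 of 36 *Msi2* windows (44.4%), in 29.5% of those of all intragenic loss DMRs and in 28.6% of those of all DMRs. The AP-1 motif TGANTCA was present in none of the 36, in 6.66% of the intragenic loss windows and in 6.51% of all. The STAT motif TTCNNNGAA was present in 4 (11.1%), in 5.89% of the intragenic loss windows and in 6.51% of all. With windows of 500 bp the shares in *Msi2* and in the intragenic loss DMRs were 66.7% and 55.2% for ETS. They were 2.78% and 15.1% for AP-1, and 36.1% and 14.6% for STAT. At both window sizes some windows of close *Msi2* DMRs overlap, so a single site can be counted more than once. The ETS and STAT motifs can overlap, because both hold the letters GAA. The TEAD motif CATTCC can share only an end base with the ETS core.

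The other motifs were at similar shares in *Msi2* and in the intragenic loss DMRs, or rested on few windows. The KLF motif CCACCC was present in 19.4% and 17.6%, and the SOX motif ACAAAG in 19.4% and 17.2%. The GATA motif AGATAA was present in 11.1% and 13.5%, the forkhead motif GTAAACA in 5.56% and 5.89%, and CATTCC in 5.56% and 11.3%. Over all DMRs the shares were 16.0% for KLF, 17.1% for SOX, 11.7% for GATA, 4.35% for forkhead and 11.7% for TEAD. In the printed sequences, DMR 17 held AGATAA at position 272, DMR 1 held ACAAAG at 174 and GTAAACA at 194, and DMR 32 held the reverse complement of CCACCC at 6, counted from 1 at the first base printed. A match only says that the letters are there, and binding was not measured.

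*Msi2* was then set beside genes with many losses. Of 26,180 annotated genes it had rank 13 by the number of loss DMRs. Of the 156 genes with at least 10 loss DMRs, 123 (78.8%) had no gain DMR either, so the absence of gains in *Msi2* was common among such genes. Per length, its 9.50 loss DMRs per 100 kb placed it at rank 113 of the 156, whose median was 16.2. Most genes of like length had no loss DMR. Of 329 genes 300 to 500 kb long, 92 (28.0%) had a loss DMR and 4 had at least 36, *Msi2* among them.

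The median difference in *Msi2* was -34.7 points, against -32.8 points over all intragenic loss DMRs, and 65 of the 156 genes had a median difference larger in size. *Prkce*, which encodes protein kinase C epsilon, had 65 loss DMRs with a median difference of -31.8 points. *Pitpnc1*, a phosphatidylinositol transfer protein gene, had 51 with a median of -35.6, and *Prickle2*, a planar cell polarity gene, had 54 with -34.3. None of these comparison genes had a gain DMR.

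**Figure D4:**
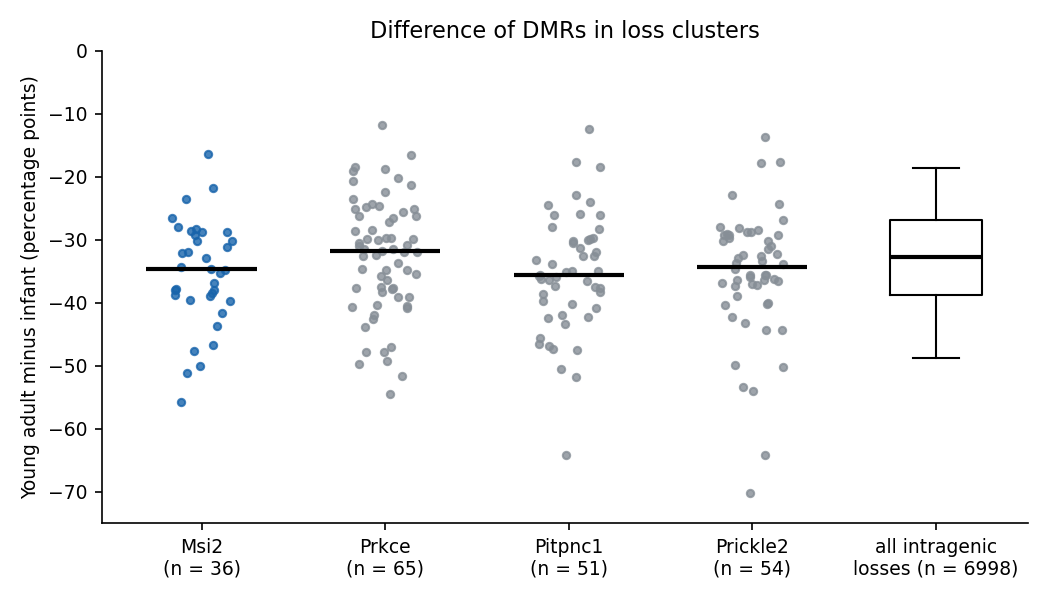
Points give the difference (young adult minus infant, percentage points) of each DMR in *Msi2* (36), *Prkce* (65), *Pitpnc1* (51) and *Prickle2* (54), with black lines as medians. The box gives the median and quartiles of all 6998 intragenic loss DMRs (whiskers cover all but the outermost 5% on each side), and the medians of the genes are -34.7, -31.8, -35.6 and -34.3 points.

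Like many of these genes, *Msi2* had most of its losses in a single intron. The intron with the most loss DMRs held a median of 62.2% of them over the 156 genes, and 86.1% in *Msi2*, with 35 genes higher. Divided by the share of the gene's length that this intron takes, the ratio was 2.67 in *Msi2* against a median of 1.50, and 18 genes were higher. The intron with the most losses was intron 1 in 102 of the 156 genes and intron 5 in *Msi2*. Introns 1 to 4 of *Msi2* are only 0.283, 0.333, 0.695 and 4.03 kb long. Its intron 5 thus starts 5.84 kb from the TSS and is the first long intron of the gene. In *Prkce* it was intron 1 with 41.5%, in *Pitpnc1* intron 1 with 68.6% and in *Prickle2* intron 2 with 66.7%.

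The genes whose median infant and young adult levels lay nearest to those of *Msi2*, among the 156, were *Rbms1*, *Pced1b* and *Meis1*. The distance, taken over both medians, was 0.473 points for *Rbms1*, 0.562 for *Pced1b* and 0.957 for *Meis1*. *Rbms1*, which also encodes an RNA-binding protein, had 17 loss DMRs with an infant median of 65.5% and a young adult median of 27.4%. *Pced1b* had 10 with medians of 65.4% and 27.4%, and *Meis1*, a homeobox transcription factor gene, had 15 with 65.3% and 27.8%. The likeness rests on a pair of medians per gene.

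The share of Musashi-linked genes with a loss DMR was close to that of all genes. A list of 13 genes held known partners and mRNA targets and also the paralogue *Msi1*. Of these, 1 gene (7.69%) had a loss DMR and 3 (23.1%) had a gain DMR in the gene body. Over all annotated genes the shares were 8.46% and 11.4%. The 13 genes had a median length of 26.0 kb and all genes one of 13.5 kb, and longer genes hold more CpGs. *Msi1*, which is also in the list of RNA-binding protein genes below, had no DMR. *Numb*, a NOTCH inhibitor whose mRNA is a classical Musashi target, had 2 loss DMRs with medians of 61.0% and 18.3%. *Smad3*, a TGFβ signal transducer, had 4 gain DMRs, and *Ikzf2*, an Ikaros family transcription factor gene, and *Jag1*, a NOTCH ligand, had 1 each.

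In a list of 51 sequence-specific RNA-binding protein genes, 10 (19.6%) had a loss and 13 (25.5%) a gain DMR, and 31 had neither. Over all annotated genes the shares were 8.46% for loss and 11.4% for gain. The listed genes had a median length of 64.6 kb, well above the 13.5 kb of all genes, and longer genes hold more CpGs. The shares were not compared at equal length. After *Msi2*, which is not in the list, *Rbms1* with 17 and *Qk*, the quaking splicing regulator, with 16 had the most loss DMRs. *Qk* had an infant median of 62.8% and a young adult median of 25.6%. *Mbnl2*, a muscleblind splicing regulator, had 7 loss DMRs and 1 gain. *Igf2bp3*, an mRNA-binding oncofetal protein gene, had 6 gains, and *Nova2*, a splicing regulator, and *Rbms3* had 5 each. Both directions thus occurred in the list. *Msi2* had more loss DMRs than any of its members, but it was selected on that number and is 378.896 kb long.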

How the data were processed

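T-WGBS was performed on lung EC, with 3 samples of each age. Per the labels, the submitters' processing notes name bcl2fastq 1.8.4, BWA 0.6.1 and R 3.2.2 and the build mm10 (GRCm38). The authors called DMRs with bsseq on unsmoothed data, from CpGs read at least 8 times in 2 or more of 3 samples per group. The deposited values are fractions, 1 mean per group and DMR as averaged by the authors over CpGs and samples, and 0 columns hold values per sample. They were turned into percent, and differences are young adult minus infant. The list was one of selected regions, so the differences are those of regions chosen for being different.

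Coordinates are given from the C of the first to the G of the last CpG, which held for 18,333 of 18,333 DMRs, counted from 1. DMRs were placed by their midpoint on 45,755 curated RefSeq transcripts, and genes were counted by their span. No test across samples could be run. Named are the *Msi2* DMRs at the extremes of each value, the 5 largest losses, those at the ends of the gene, fixed comparison and neighbouring genes, the 3 most similar genes and, of each list, *Msi1* and the genes with the most DMRs. The other *Msi2* DMRs are given to account for every region. The members, lists and motifs were chosen with earlier results of these data known. Alternatives were a minimum difference of 20 or 30 points, at least 5 CpGs, merging within 500 bp, other assignments to the gene, other transcripts and other motif windows. The placement, merging and motif steps were tested on simulated data. Python 3.11.15, pandas 2.3.3, numpy 2.4.6, scipy 1.17.1, pysam 0.24.0 and matplotlib 3.10.9 were used.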

Additional observations from a re-analysis of the deposited data

How the results depend on the processing

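The alternatives keep, merge or regroup the same 36 DMRs, all of them losses, and wider bounds of the gene added none, so the direction is no sign of stability. With at least 5 CpGs per DMR, 12 DMRs were left and the share in intron 5 was 66.7%, since 8 of the 31 DMRs inside this intron and 4 of the 5 outside it have that many CpGs. The share was 93.9% among the DMRs whose nearest promoter in the authors' table is *Msi2*, and 8.33% on the transcript NM_001201341, which ends within the intron. With at least 5 CpGs the median difference was -31.0 points, and under the other alternatives the gene had 26 to 36 DMRs, a median difference of -37.9 to -34.7 points and 82.1% to 88.5% of the DMRs in intron 5. Of all values compared, 43 moved by less than their interval or SD, or by less than 1.5 times for counts, and 9 moved further, 5 of them motif shares. Many of the 43 could not move, because the loss share was fixed and some alternatives returned the same 36 DMRs. The SD is the spread over DMRs and not the error of a median, so this tally is no measure of stability. No paired analysis was possible because the table holds group means only, and for the same reason neither a replicate block nor leaving out a replicate could be run. The unknown depth of each DMR and the selection of regions by their difference limit what the sizes show.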

Other observations

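Beyond *Msi2*, the 200 kb next to its far end held 4 loss and 6 gain DMRs, and the 200 kb upstream of its TSS held 0 loss and 2 gain DMRs. The 4 losses lay in *Cuedc1*, and their median difference was -32.2 points, close to that in *Msi2*. Some of the 6 gains lay in *Cuedc1* too, which had 5 loss and 3 gain DMRs over its whole span. The 6 gains next to the far end had a median difference of 28.5 points. Of these, the gain at chr11:88194239-88194345, within *Mrps23*, which encodes a subunit of the mitochondrial ribosome, went from 6.61% to 34.3% with age. Of the gains upstream, that at chr11:88803544-88803597 went from 13.2% to 36.2%. *Akap1*, *C030037D09Rik*, *Ccdc182*, *4930556N13Rik* and *Scpep1os*, the other neighbours, held no DMR.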
